A study of Caenorhabditis elegans with 6 samples.

Results

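Small nuclear RNA (snRNA) genes were examined in RNA precipitated with MBL-1, the Caenorhabditis elegans muscleblind protein, a regulator of alternative splicing. The members were all genes of biotype snRNA in the RefSeq gene table of WBcel235, 129 of 31563 genes once piRNA genes were set aside, and a gene counted as having a peak where the summit of a deposited peak lay inside it. The data came from RNA immunoprecipitation and sequencing of whole larvae at the L4 stage, grown at 20 °C, with 3 samples of RNA recovered by an anti-FLAG antibody (IP) and 3 samples of RNA taken before precipitation (RNA input). All 6 samples had the genotype mbl-1c(syb5299) and carried MBL-1 with a 3xFLAG tag. IP and input thus differ in the precipitation and not in genotype. A precipitation from untagged larvae was not analysed here, whole larvae mix all cell types, and the labels do not say that replicates came from separate cultures, so the spread given here may be technical.

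Spliceosomal snRNAs pair with pre-mRNA and with each other and, wrapped in Sm or LSm proteins, form the core of the spliceosome. U1 recognises the 5′ splice site, U2 the branch point, and U4, U5 and U6 join as a tri-snRNP. Nematodes also have spliced leader RNAs, encoded by the sls genes, which donate a short leader to the 5′ end of many mRNAs by trans-splicing, and SmY RNAs, encoded by the smy genes, which are Sm-bound RNAs linked to that reaction. Muscleblind proteins bind pre-mRNA near regulated exons, and the comparison of IP with input asks which RNAs were enriched with MBL-1.

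One peak list per replicate, called lists 1, 2 and 3, compared 1 IP with the input of the same number. The 3 IP libraries held 39033 to 49827 tags and the 3 input libraries 30707 to 38364 tags after all but 1 tag per position had been removed, a step that took away 67.4 to 69.9% of IP tags and 69.2 to 71.9% of input tags. A tag number at a summit therefore counts distinct read positions that cover it and is not a number of RNA molecules. Fold enrichment and pileup are the authors' values for each peak. Lists hold values only where a peak was called, so IP exceeded input at every value given here and no test of IP against input was made.

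Of the 129 snRNA genes, 14 had a summit in at least 1 list (10.9%), 11 in at least 2 lists (8.53%) and 8 in all 3 (6.2%). With only peaks of a −log10 q of at least 5, 7 genes recurred in at least 2 lists, of which 5 did so in every list. Over all genes these shares were 0.783%, 0.466% and 0.285%, and over protein-coding genes 0.831%, 0.41% and 0.23%. Over the 346 snoRNA genes, which encode the small nucleolar RNAs that guide RNA modification, they were 11.6%, 9.83% and 7.23%. Among genes with a summit, recurrence in at least 2 lists held for 78.6% of the snRNA genes, against 85% of snoRNA genes, 49.4% of protein-coding genes and 59.5% of genes of any class. The snRNA shares were thus above those of all genes and close to those of snoRNA genes. This comparison does not take the abundance of the RNAs into account. Its 14 snRNA genes count an overlapping pair of entries with 1 shared summit as separate genes, which lowers their recurrence. A summit also counts for every gene that contains it. The coding shares thus include hosts whose only summits lie in an snRNA gene, and the shares of all genes include the snRNA genes themselves. Summits in snRNA genes numbered 8 of 109 in list 1 (7.34%, exact Clopper-Pearson 95% interval 3.22 to 13.95%), 12 of 151 in list 2 (7.95%, 4.17 to 13.5%) and 12 of 199 in list 3 (6.03%, 3.15 to 10.3%). These intervals overlap, and they cover counting error only.

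The 8 genes with a summit in all 3 lists were sup-6, sup-39, F08H9.10, T08G5.11, F10D2.13, W04G5.11, C27H5.11 and F11A5.14. H27M09.6, Y47H9A.2 and Y54G9A.8 had one in lists 2 and 3, Y57G11C.35 in list 2 alone, and T27E4.22 and T27E4.12 in list 3 alone. The last pair are overlapping entries that share 155 bp and 1 summit, so the 14 genes stand for 13 places in the genome and 32 summits. The other 115 snRNA genes had no summit, which at this depth does not show that their RNA was not precipitated. The gene table names no U type for the members, and types are given here only for sup-6 and sup-39, which are known from suppressor genetics as U1 snRNA genes.

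The local input level behind each fold was recovered from pileup and fold. At 25 of the 32 summits it was a whole number of tags, which is the number of input tags within the extension length around the summit. At the other 7 it lay at the genome-wide background, so that 0 input tags were counted there. Over all summits of the lists, 26.1% had a whole number of input tags and 58.8% lay at the background. The denominators at snRNA genes were thus mostly counted, but they were small, with 3 input tags or fewer at 26 of the 32 summits.

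sup-6 (chromosome II, 12944803 to 12944967, 165 bp), a U1 snRNA gene in which mutations act as suppressors, had the highest IP coverage of the members in every list. It had 41, 63 and 59 tags in IP 1, 2 and 3, against 6, 5 and 5 tags in inputs 1, 2 and 3. All IP values lay above all input values, which the calling of a peak selects for. Per 10000 tags of the library this was 12.4 ± 1.81 in the IP (SD, n = 3), and the fold was 7.09 ± 1.33 (SD, n = 3). Among all summits of a list its tag number ranked 7 of 109, 6 of 151 and 8 of 199, whereas its fold ranked 55, 36 and 44.

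sup-39 (II, 6968394 to 6968558, 165 bp), the other U1 snRNA suppressor gene, followed with 33, 43 and 52 IP tags against 7, 9 and 4 input tags. List 3 had the most IP tags and the fewest input tags. The folds were 3.997, 3.41 and 7.83 in lists 1, 2 and 3, and their mean of 5.08 ± 2.40 (SD, n = 3) was raised by list 3. In list 2 sup-39 had the most input tags of any summit in an snRNA gene, and the ratio of IP to input per library tag was 3.68 there (95% interval 1.77 to 8.58, counting error only). The ratio was 4.43 in list 1 (1.925 to 11.85) and 9.54 in list 3 (3.51 to 36.3), so the intervals of the 3 lists overlap.

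F08H9.10 (V, 14463188 to 14463352, 165 bp) had 30, 30 and 42 IP tags against 3, 1 and 2 input tags. Its fold of 9.98 ± 2.44 (SD, n = 3) was the highest mean of the 8 genes, at 7.29, 12.05 and 10.6. In list 2 the ratio of IP to input per library tag was 23.1, but with 1 input tag its 95% interval ran from 3.84 to 942.4. The authors' fold adds 1 to both levels and is therefore lower than this ratio where input is low.

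T08G5.11 (V, 14028471 to 14028635) has the same annotated length of 165 bp. It had 18, 27 and 26 IP tags against 3, 2 and 3 input tags, and a fold of 5.59 ± 1.48 (SD, n = 3). F10D2.13 (V, 7142717 to 7142858, 142 bp), the shortest member with a summit, had 17, 27 and 25 IP tags against 1, 2 and 1 input tags. Its fold of 8.47 ± 1.21 (SD, n = 3) had the smallest relative spread of the 8 genes, with a coefficient of variation of 14.2%. The IP values of T08G5.11 and F10D2.13 overlapped, while their folds of 4.47, 7.26 and 5.02 and of 8.48, 7.26 and 9.67 met only in list 2.

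W04G5.11 (I, 11649503 to 11649687, 185 bp) had 14, 21 and 18 IP tags against 2, 1 and 2 input tags. Its folds of 4.71, 8.58 and 4.74 were high in list 2, the list with a single input tag. C27H5.11 (II, 7171842 to 7172004, 163 bp) had 16, 17 and 15 IP tags against 0, 1 and 1 input tags. The IP coverage of C27H5.11 was 3.70 ± 0.357 per 10000 library tags (SD, n = 3), yet its folds were 13.1, 7.04 and 6.004, the first of them over input at the background. Against the 3 input tags that a count of 0 allows, the ratio of IP to input in list 1 was 5.01. This value takes the IP count as exact and leaves out its counting error.

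F11A5.14 (V, 16225701 to 16225887, 187 bp) varied most in IP coverage, with a coefficient of variation of 44.0%. It had 7, 19 and 20 IP tags against 0, 1 and 0 input tags, with folds of 6.20, 7.81 and 13.2. IP 1 was low, at 1.79 per 10000 library tags, against 3.81 and 4.78 in IP 2 and IP 3. The 95% Poisson intervals of the 3 counts, 2.81 to 14.4, 11.4 to 29.7 and 12.2 to 30.9, overlap. With input set to 3 tags and the IP count taken as exact, the ratio was 2.19 in list 1 and 4.89 in list 3. These values leave out the counting error of the IP.

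**Figure D1:**
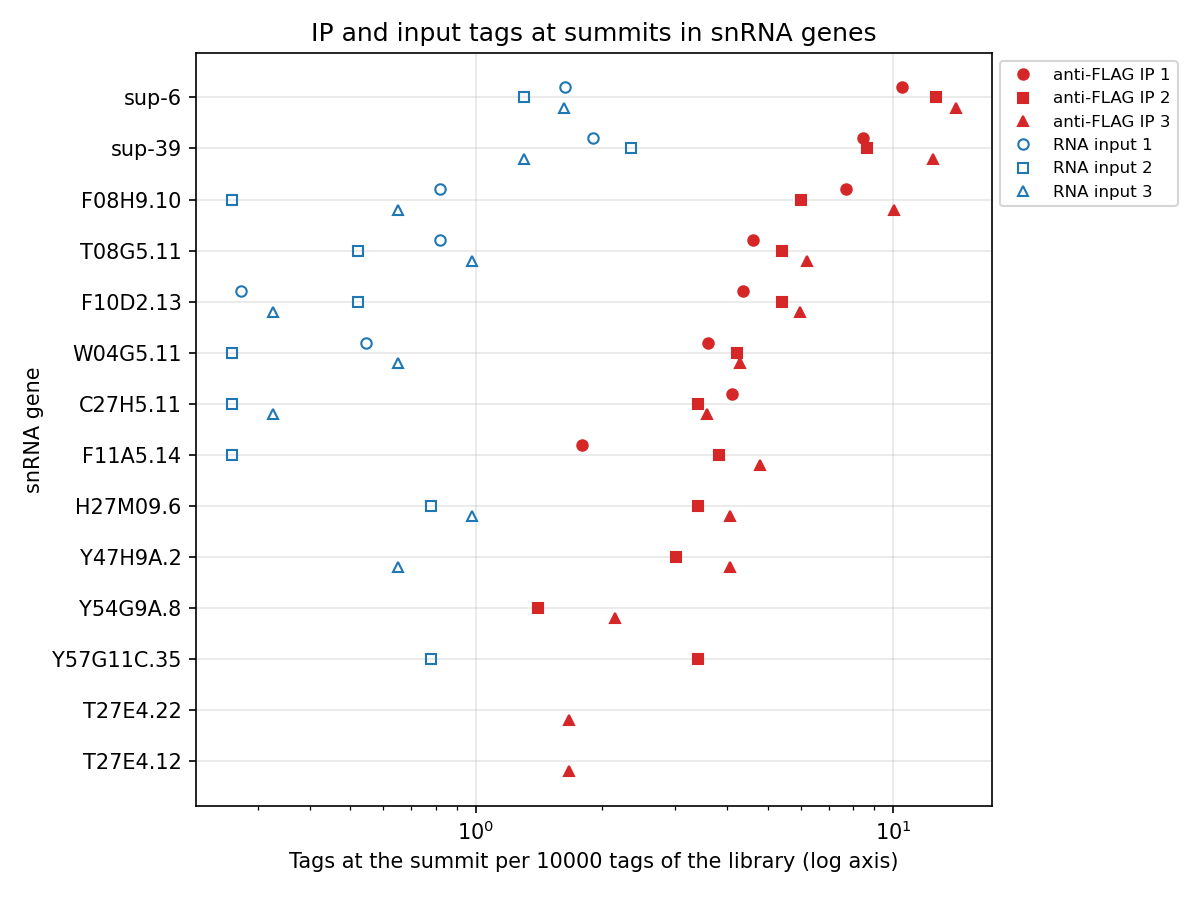
Tags covering the summit per 10000 tags of the library (log axis) for the 14 snRNA genes with a summit, in IP (filled red) and RNA input (open blue), with 1 symbol per replicate; an input of 0 tags is not drawn. sup-6 is the highest in every IP, at 10.5, 12.6 and 14.1. Input lies below the IP wherever it was counted, which the calling of a peak selects for.

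Ranked by IP tags, sup-6, sup-39 and F08H9.10 held the first 3 places of the 8 genes in every list. Coverage at the summit was compared, and since 1 tag was kept per position, gene length may limit it, which was not tested. sup-6, at 10.5 to 14.1 per 10000 library tags, did not overlap F08H9.10, at 6.02 to 10.04, and sup-39, at 8.45 to 12.4, overlapped both. F08H9.10 in turn did not overlap F10D2.13, at 4.36 to 5.98, but did overlap T08G5.11, at 4.61 to 6.21. Lower by mean, W04G5.11, C27H5.11 and F11A5.14 overlapped one another, and F11A5.14, at 1.79 to 4.78, also overlapped F10D2.13 and T08G5.11. The 4 genes of 165 bp took the first 4 places by mean IP coverage, although T08G5.11 and F10D2.13 were not apart beyond their spread.

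Order by fold was less stable than order by tags. The gene with the highest fold of the 8 was C27H5.11 in list 1, F08H9.10 in list 2 and F11A5.14 in list 3, and sup-39 was the lowest in lists 1 and 2 but not in list 3, where W04G5.11 was. The median coefficient of variation over the 8 genes was 31.8% for the fold and 15.2% for IP tags per 10000 library tags. In 5 of the 8 genes IP coverage varied relatively less than the fold. IP 3 had the highest coverage per library tag in 7 of the 8 genes, C27H5.11 being the exception, and IP 1 had the lowest in 6 of them.

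**Figure D2:**
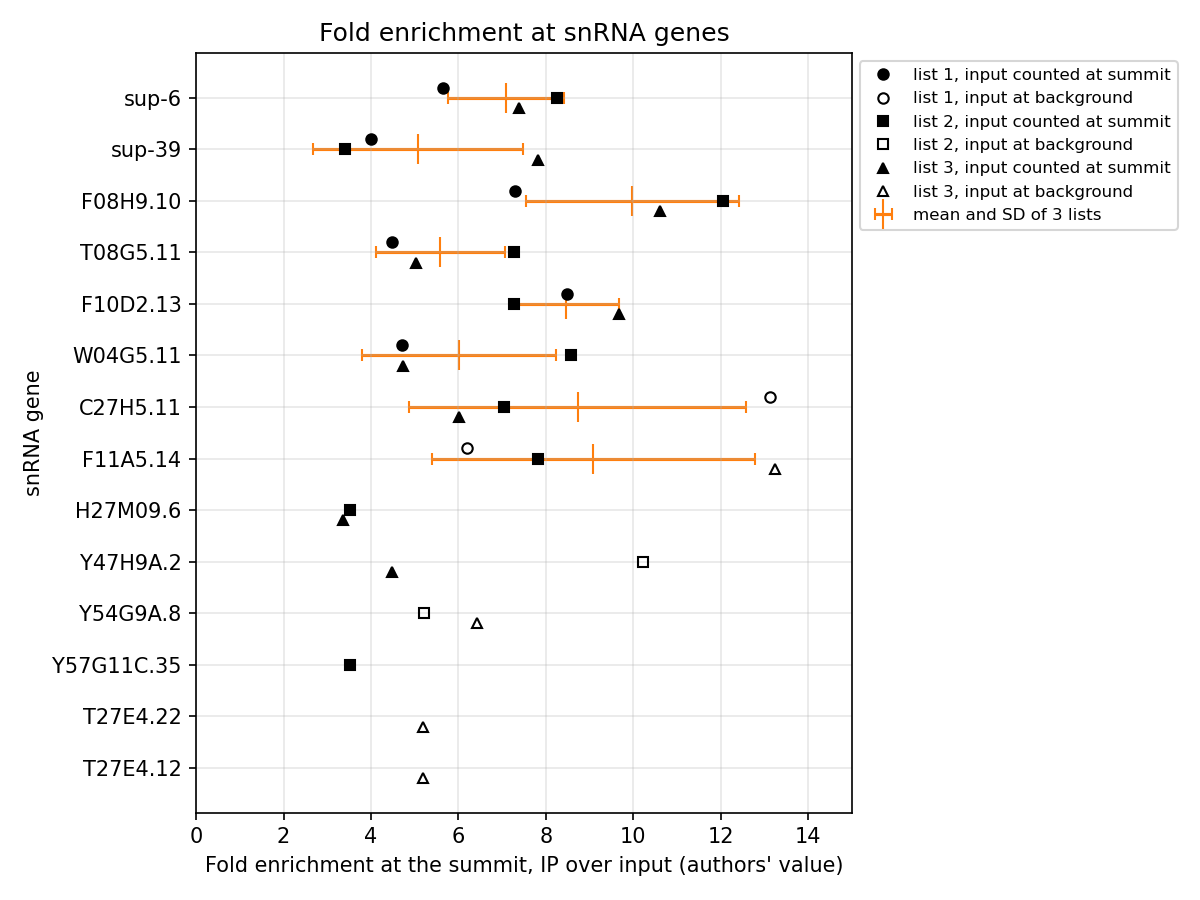
Fold enrichment of IP over input at the summit, as the authors' caller gave it, for the 14 snRNA genes, with a symbol for each list; open symbols have input at the background, and orange bars are the mean and SD of the 3 lists. C27H5.11 in list 1 and F11A5.14 in list 3, at 13.1 and 13.2, are the highest and both lie over background input.

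The members found in 1 or 2 lists had 7 to 17 IP tags at their summits, against 7 to 63 in those found in all 3. H27M09.6 (I, 6847137 to 6847303, 167 bp) had 17 and 17 IP tags in lists 2 and 3 against 3 and 3 input tags, and its folds of 3.52 and 3.37 differed little. The peak of list 3 was the only one of the 32 with a q above 0.05, at a −log10 q of 1.23. Y47H9A.2 (I, 11628168 to 11628354, 187 bp) had 15 and 17 IP tags against 0 and 2 input tags, with folds of 10.2 and 4.49. Its IP level was thus alike in both lists, and the fold was high where no input tag was counted.

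Y54G9A.8 (II, 13717567 to 13717753, 187 bp) had 7 and 9 IP tags in lists 2 and 3 with 0 input tags in both, and folds of 5.20 and 6.43. Y57G11C.35 (IV, 14764848 to 14765034, 187 bp) had 17 IP tags against 3 input tags in list 2, a fold of 3.52. The overlapping T27E4.22 (V, 9091453 to 9091608, 156 bp) and T27E4.12 (V, 9091454 to 9091623, 170 bp) shared a summit of 7 IP tags over background input in list 3, a fold of 5.19. With input set to 3 tags and the IP count taken as exact, the ratio at this last place was 1.71. Low tag numbers thus leave the size of this ratio uncertain.

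Summits lay near the middle of the snRNA genes. The members were chosen by a summit inside the gene, so the rule itself bounds the distance from the midpoint. Over the 33 pairs of gene and summit, the summit lay between 26 bp below and 36 bp above the midpoint of the gene in coordinates, and 25 pairs were within 20 bp of it. Peaks were 201 to 338 bp wide with a median of 283.5 bp, wider than any member, and in 22 of the 33 pairs the peak reached past both ends of the gene. The tags had been extended to 201 to 203 bp before calling, which is longer than the genes, so these peaks do not place MBL-1 within an snRNA. For a gene in all 3 lists, the summits of different lists were 8 to 60 bp apart. sup-6 and C27H5.11 were the tightest, at 8 bp each, and T08G5.11 the widest, where the summit of list 3 lay above the midpoint and those of lists 1 and 2 below it.

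**Figure D3:**
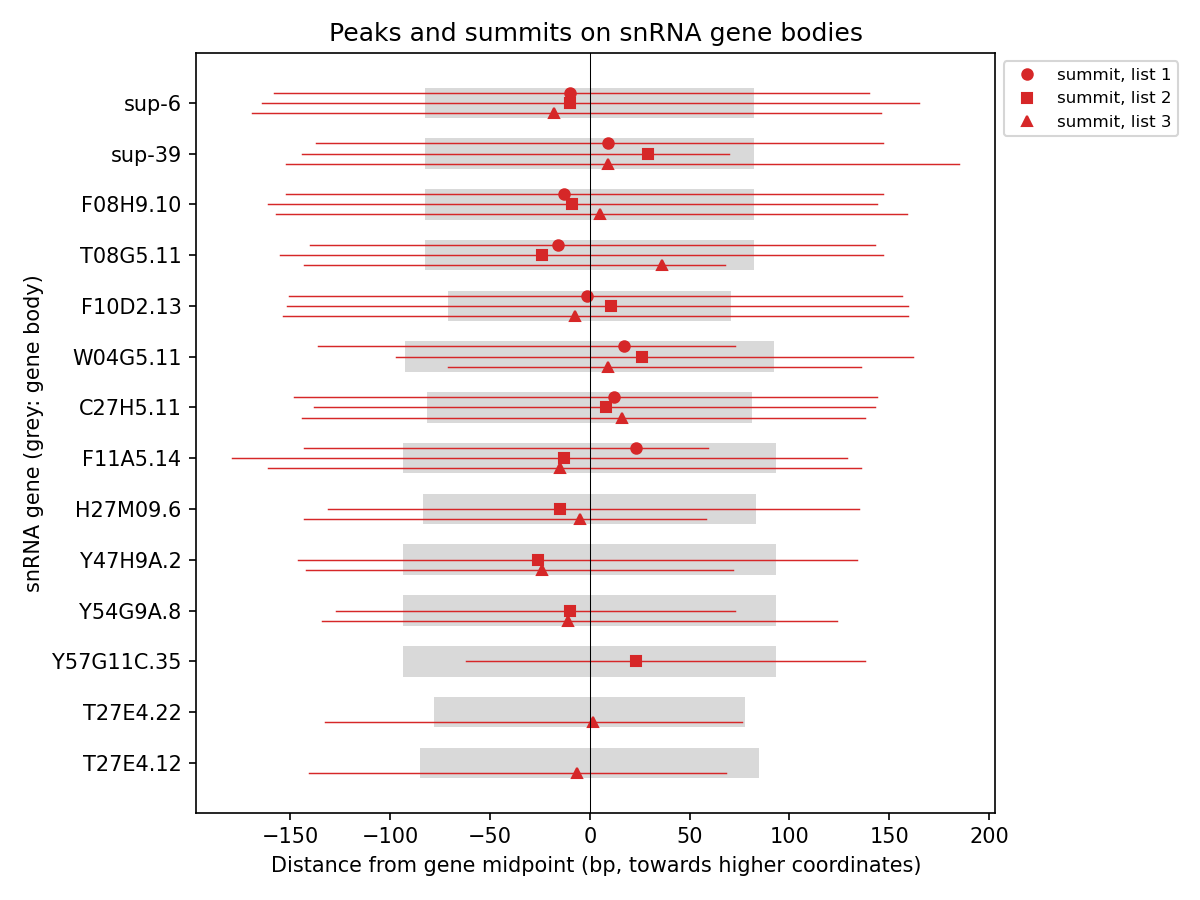
Peaks (red lines) and summits (symbols, one kind per list) relative to the midpoint of each snRNA gene in bp, with the gene body in grey. Summits stay within 36 bp of the midpoint, and most peaks extend past both ends of the gene. By the member rule every summit lies inside its gene.

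Several members lie within other annotated genes. sup-39 lies inside C15F1.5 (2716 bp), sup-6 inside F58G1.7 (4410 bp), Y57G11C.35 inside Y57G11C.5 (3634 bp) and F10D2.13 inside ugt-37 (3396 bp), which is named as a UDP-glucuronosyltransferase gene, while F08H9.10 shares 151 of its 165 bp with hsp-16.20 (1392 bp). All of these 5 are protein-coding. In none of them did any list have a summit outside the snRNA gene (0 summits in each), so the peaks of these coding genes were at the snRNA gene alone. Neither the lists nor the gene table give strand or exons, so snRNA and host RNA cannot be told apart at these 5 genes. In addition, 10 of the 14 members lie within an ncRNA entry that is 4 to 24 bp longer, such as C15F1.14 around sup-39 and F10D2.15 around F10D2.13. W04G5.11, C27H5.11 and F11A5.14 overlap no other gene of the table, and they had a summit in all 3 lists.

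Members with a summit were confined to part of the snRNA genes by name and length. None of the 12 sls-1 genes, of the 18 sls-2 genes or of the 10 smy genes had a summit (0 in each), so no spliced leader or SmY RNA gene was found, and all 14 were among the other 89 snRNA genes. By annotated length, 4 of 7 genes of 165 bp and 4 of 14 genes of 187 bp had a summit, as did 1 of 2 genes of 185 bp. The genes of 142, 156, 163, 167 and 170 bp, each the only one of its length, had one. In contrast, 0 of 19 genes of 102 bp, 0 of 9 of 122 bp and 0 of 4 of 144 bp had one. Lengths with fewer than 4 genes and no summit are not listed here, among them the 164 bp of T27E4.10 and T27E4.11. Over all lengths from 140 to under 160 bp, 2 of 7 genes had a summit, and from 160 to under 180 bp, 7 of 12. No gene shorter than 142 bp had a summit (0 of 91), against 14 of the 38 genes of at least 142 bp, a limit read off the data. The tag size was 127, 138 and 141 bp in lists 1, 2 and 3, longer than any of these 91 genes, at 22 to 126 bp. Whether tag size bears on the calls was not tested.

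snoRNA genes did not share this limit of 142 bp. Of snoRNA genes shorter than 142 bp, 29 of 224 had a summit (12.9%), and of longer ones 11 of 122 (9.02%). From 100 to under 140 bp, 0 of 62 snRNA genes and 27 of 127 snoRNA genes (21.3%) had one, and from 160 to under 180 bp, 7 of 12 snRNA genes (58.3%) and 5 of 34 snoRNA genes (14.7%). Genes of 100 to under 140 bp were thus frequent among snoRNA genes with a summit and missing among snRNA genes. Many snRNA genes stand near others of the same annotated length, and calls were fewer among these. Of 51 snRNA genes with another of the same annotated length within 10000 bp, 1 had a summit, F08H9.10, whose neighbour F08H9.11 had none. Of the 78 without such a neighbour, 13 had one. These 13 include the overlapping T27E4.22 and T27E4.12, which count as 1 place and lie 414 to 4433 bp from T27E4.10 and T27E4.11, both of 164 bp, and so fall here only because the rule asks for an equal length. Among genes of at least 142 bp the counts were 1 of 15 with such a neighbour and 13 of 23 without. The window was chosen after the data were seen, and whether the copies differ in sequence, and so whether reads could be assigned among them, was not tested.

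**Figure D4:**
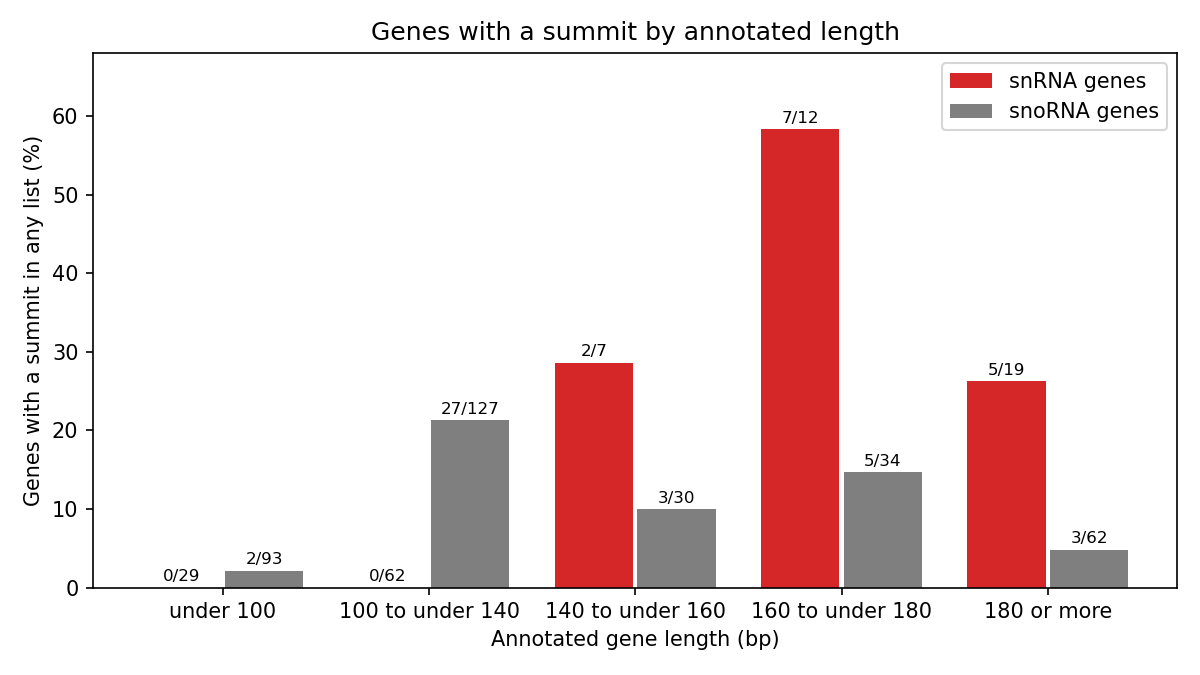
Share of genes with a summit in any list (percent, bars from 0) by annotated gene length for snRNA (red) and snoRNA (grey) genes, with counts above the bars. No snRNA gene below 140 bp has a summit, whereas 27 of 127 snoRNA genes of 100 to under 140 bp have one.

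By chromosome, summits lay in 3 of 16 snRNA genes on I, 4 of 16 on II, 1 of 41 on IV and 6 of 40 on V, and in 0 of 13 on III and 0 of 3 on X. The snRNA genes on III are 101 to 112 bp long and those on X 80 to 104 bp. All are shorter than 142 bp, so these zeros are not separate from the pattern by length. Both the highest and the second of the members by IP coverage, sup-6 and sup-39, lie on II, and the 6 genes on V include the overlapping pair T27E4.22 and T27E4.12.

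Compared with summits in snoRNA genes, summits in snRNA genes had like IP coverage, more input and a lower fold. Only called peaks enter this comparison. The caller selected them on IP over local input, and genes without a summit are left out, so it does not describe the 2 gene classes as a whole. The median IP tags were 17.5, 20 and 19 at snRNA summits in lists 1, 2 and 3, against 16, 19.5 and 19 at snoRNA summits. On the log2 scale the difference of medians, snRNA minus snoRNA, was 0.05 ± 0.07 (SD, n = 3 lists, exact two-sided sign-flip permutation test, p = 0.5). The median fold was 5.92, 7.26 and 6.21 at snRNA summits, against 8.80, 8.34 and 8.90 at snoRNA summits. This was lower in 3 of 3 lists, by a log2 difference of -0.43 ± 0.20 (SD, n = 3, exact sign-flip permutation test, p = 0.25, the smallest that 3 lists allow).

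Local input was higher at snRNA summits in each list, with medians of 2.5, 1.5 and 2 tags, against 0.703, 0.701 and 0.203 tags at snoRNA summits. The difference in log2(input level + 1) was 0.97 ± 0.39 (SD, n = 3, exact two-sided sign-flip permutation test, p = 0.25). This comparison was added after the data were seen. Input level was recovered from fold and pileup, so at like IP tags higher input and lower fold are 1 observation. Input at the background was found at 21.9% of 32 snRNA summits and 38.4% of 99 snoRNA summits, against 71.2% of 299 summits at protein-coding genes outside small structured RNA genes. These coding summits had medians of 7.5, 8 and 5 IP tags and folds of 5.44, 4.58 and 3.95. With 3 lists no such difference can reach a p of 0.05.

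**Figure D5:**
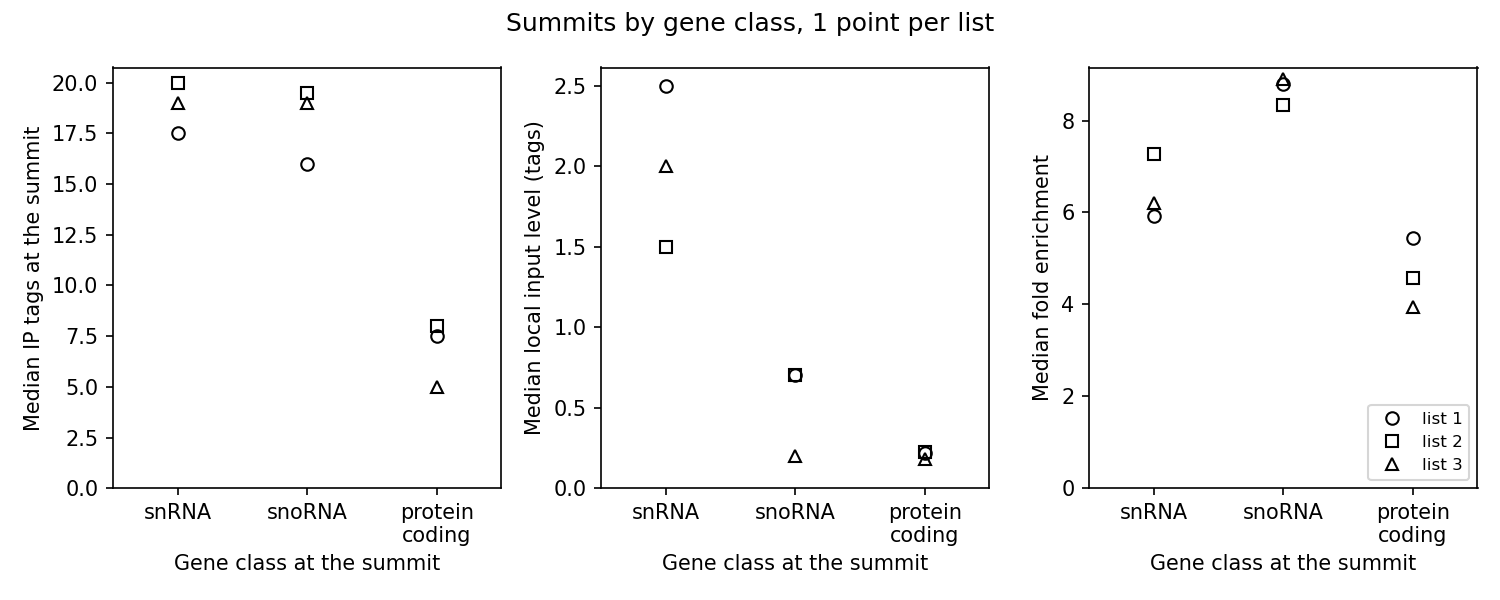
Medians over summits of IP tags, local input level and fold enrichment by gene class, with 1 symbol per list and axes from 0. snRNA and snoRNA summits have like IP tags, and in each list snRNA summits have more input and a lower fold than snoRNA summits. Input was recovered from fold and pileup, so these are not separate results.

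Protein genes of the snRNP and splicing machinery were rarely in the lists. Of 70 such genes found in the gene table, 1 had a summit (1.43%), against 0.831% of all protein-coding genes. It was prp-8, which encodes the central protein of the U5 snRNP, and it had 7 IP tags and a fold of 4.56 in list 2 alone, at a summit that also lies in C50C3.13. The 7 Sm, 8 LSm and 3 spliced leader snRNP genes had 0 summits, as did the genes of the snRNA-activating complex, of the Integrator complex that cleaves snRNA ends, and of snRNA assembly and modification. A share of 1 gene in 70 is near the background and is no result about this machinery.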

How the data were processed

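Peak lists from RIP-seq of 3 anti-FLAG IP and 3 RNA input samples were used, grouped from the sample titles. Per the labels' protocols, libraries were made from 250 bp fragments and read in pairs of 150 nt. The authors ran MACS2 2.1.0.20150420 separately for each pair of IP and input with a p threshold of 0.001, per the file headers. The submitters' processing notes also name BWA, DiffBind and WBcel235. Alignment names carry the words uni and dedup, per the file headers, which do not explain them.

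The deposited signal is the pileup of extended IP tags, scaled to the smaller library. The deposited fold is the ratio of IP pileup to local input level, each with 1 added. The deposited −log10 p and −log10 q are the caller's Poisson values, although according to the headers no q would be computed.

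Pileup divided by the scaling gave whole tags (within 0.02) at all 459 summits. Input levels were called whole within 0.003 and background within 0.01. Genes came from a RefSeq table of WBcel235, matched by build name alone. That table has no strand, exons or sequences, so no sequence is shown. All snRNA genes whose body held a summit were named, with their coding hosts and any snRNP protein gene with a summit. Of 76 listed protein genes, 70 were in the table. The members, lists and tests were chosen with earlier results of these data known. Medians per list were compared by exact sign-flip permutation tests. Intervals are exact and cover counting error only. On 600 simulated peaks, all tags, input levels and genes were recovered. The simulation used the formula that recovery inverts and put each summit inside its gene, so it checks the code only. Its input levels were whole numbers or the background. Alternatives were thresholds on q and fold, other rules for naming the gene, a stricter overlap between lists and leaving out each replicate. Tools were pandas 2.3.3, scipy 1.17.1 and numpy 2.4.6 under Python 3.11.15, with matplotlib 3.10.9 for figures.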

Additional observations from a re-analysis of the deposited data

How the results depend on the processing

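At a −log10 q of at least 5, which removes weak peaks by construction, 7 snRNA genes recurred in at least 2 lists, 5 of which were in every list, and 10 genes were left in any list, all of them among the 14. A fold of at least 4 left 12 genes, without H27M09.6 and Y57G11C.35. Counting any overlap, or a summit within 50 bp, added only mir-1831, a 22 bp entry of biotype snRNA inside sup-39. A q of at most 0.05, added after the data were seen, kept all 14, with 10 in at least 2 lists. Requiring peaks of different lists to share 50% of the shorter one changed neither count. Without each replicate in turn, 12 to 14 genes had a summit, 8 to 11 had one in both remaining lists, and 20 to 24 summits were left, fewer by construction. Without replicate 3 T27E4.22 and T27E4.12 were lost, and without replicate 2 Y57G11C.35. Against snoRNA summits, the log2 fold difference stayed negative (-0.55 to -0.36) and that of input positive (0.80 to 1.18) under every alternative run. That of IP tags was 0.02 to 0.25. None of these differences could pass 0.05 in an exact sign-flip test. No paired analysis was possible because no result here comes from a test of IP against input: the folds are already paired, and at called peaks IP exceeds input by selection. Depth limits each ratio, with at most 9 input tags at any snRNA summit.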

Other observations

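A pair of summits lay close to spliced leader genes without touching them. In list 3 a summit of 4 IP tags and fold 3.32 lay 201 bp outside sls-2.14, and in list 2 a summit of 6 IP tags and fold 4.57 lay 132 bp outside sls-2.15. Both were over low input, inside the coding gene W09D6.5, which holds no snRNA gene with a summit, and neither peak overlapped the sls-2 gene. They were the nearest summits to any spliced leader gene within 500 bp.

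The summits of sup-39 lay 45, 25 and 45 bp from the mir-1831 entry in lists 1, 2 and 3. The table gives mir-1831 the biotype snRNA despite its microRNA name, and its RNA cannot be told apart from that of sup-39 here.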
